A study of Mus musculus with 6 samples.

Results

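The genes that encode the protein part of the cytosolic ribosome were examined for 2 histone marks in mouse germinal center B cells. Members were the protein-coding genes of the mouse GENCODE annotation (release M21, genome build GRCm38) whose symbol is Rpl, Rps or Rplp followed by a digit, without pseudogene symbols and without the ribosomal protein S6 kinases. This name rule gave 85 of 21864 coding genes, and no measured value was used to choose them. They comprised 43 genes of the large subunit, 30 of the small subunit, 3 of the stalk, 8 paralogs or retrogene copies and 1 gene, Rps19bp1, that encodes a protein binding RPS19 and not a ribosomal protein. The 76 large subunit, small subunit and stalk genes are called core genes below.

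The study profiled chromatin in immunized mice by Mint-ChIP, a chromatin immunoprecipitation in which samples are barcoded and pooled before the antibody is added. All 6 libraries came from spleen cells of wild-type mice immunized with sheep red blood cells and analysed on day 8, with 50000 sorted cells per library, and 3 were labelled H3K4me3 and 3 H3K4me1. The sample labels name the cells germinal center centrocytes, whereas the study's methods speak of germinal center B cells. The protocol text names an antibody to acetylated H3K27, whereas the titles, the antibody labels and the methods name H3K4me1 and H3K4me3. Wild-type animals elsewhere in the study carried the Cγ1-cre allele, which is not stated for these libraries. Nothing states that the replicates came from separate animals, so the spread between libraries may be technical.

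The H3K4me3 libraries held 41936 to 46707 peaks and the H3K4me1 libraries 11922 to 24136, with replicate 1 the highest for both marks. H3K4me3 peaks were called as broad regions and H3K4me1 peaks as narrow ones with a summit, so widths are given for H3K4me3 only and the marks are not compared by width. As a check of the label, an H3K4me3 peak covered a transcription start site (TSS) of 10 of 10 germinal center B cell markers in all 3 libraries, among them Bcl6 and Pax5. The same held for 0 of 10 markers of T, myeloid, erythroid and liver cells, although Cd14 and Hbb-bt were covered in 1 library each. A peak within 5 kb of a TSS, the looser measure used below, separated the lists less well. It was present in all 3 libraries at 3 of these 10 markers, Cd3d, Cd14 and Hbb-bt.

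A ribosome consists of a small subunit, which reads the messenger RNA, and a large subunit, which joins the amino acids and releases the chain through an exit tunnel. A germinal center B cell divides quickly and must double its ribosomes in each cycle, and ribosomal protein genes are among the most steadily transcribed genes of mammalian cells. Their promoters typically carry CpG islands, and their transcripts begin in a run of C and T bases, the terminal oligopyrimidine (TOP) tract, through which growth signals control translation. Trimethylation of H3K4 marks the nucleosomes around active start sites. Monomethylation of H3K4 is the usual mark of enhancers and of the flanks of promoters, and is depleted where trimethylation is high.

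Promoter sequences are shown for 4 core genes whose start was covered by H3K4me3 in all 3 libraries and for 3 copies whose start was covered in none, because core genes and copies differed in H3K4me3 and because Rps27 and Rpl10 are parents of Rps27rt and Rpl10l. Each window holds 60 bases before and 20 bases from the RefSeq start (GRCm38.p6), 5′ to 3′ on the gene's strand, and capitals mark the longest run of C and T within 20 bases of the start, and every run of that length where several tie. Coordinates are chr4:86857348-86857427 (minus strand) for Rps6, chr7:45128726-45128805 (minus) for Rpl13a, chr3:90213629-90213708 (minus) for Rps27 and chrX:74270756-74270835 (plus) for Rpl10. They are chr9:114982720-114982799 (minus) for Rps27rt, chr12:66284382-66284461 (minus) for Rpl10l and chr16:10170168-10170247 (plus) for Rpl39l.
Rps6: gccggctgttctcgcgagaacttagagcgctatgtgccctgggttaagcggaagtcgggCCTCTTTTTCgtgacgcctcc
Rpl13a: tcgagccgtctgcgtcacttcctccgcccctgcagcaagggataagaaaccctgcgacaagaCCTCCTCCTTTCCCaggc
Rps27: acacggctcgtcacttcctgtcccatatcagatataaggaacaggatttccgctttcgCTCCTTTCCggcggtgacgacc
Rpl10: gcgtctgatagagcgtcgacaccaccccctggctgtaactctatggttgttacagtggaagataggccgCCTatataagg
Rps27rt: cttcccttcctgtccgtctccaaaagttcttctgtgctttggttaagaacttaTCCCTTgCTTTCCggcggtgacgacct
Rpl10l: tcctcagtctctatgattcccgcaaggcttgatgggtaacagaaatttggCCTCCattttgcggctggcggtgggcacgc
Rpl39l: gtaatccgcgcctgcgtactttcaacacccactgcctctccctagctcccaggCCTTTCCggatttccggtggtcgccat

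The capitalised run was 10 bases in Rps6, 14 in Rpl13a, 9 in Rps27 and 3 in Rpl10. It was 5 bases in Rpl10l and 7 in Rpl39l, and Rps27rt had a pair of runs of 6 bases, the second of which holds the start itself. Among 13186 coding promoters read the same way, 15.3% held a run of 8 or more, and the median longest run was 5 bases. The windows of Rps27 and of its intronless copy Rps27rt shared a stretch of 19 bases. The 7 windows were picked for illustration with their H3K4me3 values known. No share over the members was computed, because a matching RefSeq start was found for 53 of 85 (62.4%), below the 80% required. The coding promoters likewise cover only the 60.3% of coding genes with a match. Their 15.3% is therefore background and no comparison for the 7 windows.

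Nearly every ribosomal protein gene had H3K4me3 nearby. A peak lay within 5 kb of a TSS of 83 of 85 members in each of the 3 libraries (97.6%, 95% Wilson interval 91.8 to 99.4%, counting error only), against 61.7%, 59.2% and 60.3% of all coding genes. The same 83 members were marked in all 3 libraries, beside 56.1% of all coding genes, and among the core genes the count was 76 of 76. Other housekeeping sets were marked as often. In all 3 libraries a peak was near 78 of 78 mitochondrial ribosomal protein genes, 46 of 46 complex I genes and 47 of 50 proteasome genes. The members without a peak were Rpl10l and Rpl39l, copies of Rpl10 and Rpl39 that are best known from the testis. For Rpl39l the nearest H3K4me3 peak was 22256, 22227 and 22582 bp away in replicates 1 to 3, and for Rpl10l it was 11514 bp away in replicate 1, with none within 50 kb in the others. Keeping only peaks with a −log10 q of at least 5 lowered the members' mean share to 83.1%, and keeping the best 10000 peaks of each library lowered it to 66.3%.

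A stricter reading asked whether a peak covered the principal TSS, the start of the best-supported transcript. This held for 78, 71 and 75 members in replicates 1, 2 and 3 (91.8%, 83.5% and 88.2%), and for 69 members in all 3 (81.2%), beside 35.5% of all coding genes. The share in all 3 was higher for mitochondrial ribosomal protein genes (89.7%), complex I genes (89.1%) and proteasome genes (86.0%) than for members. Another 10 members were covered in 1 or 2 libraries and 6 in none. Of those 6, Rpl10l, Rpl39l, Rpl3l and Rps27rt are copies, while Rpl10a (large subunit) is a core gene.

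At core genes described here whose start was uncovered in some or all libraries, the mark was close by. The nearest peak began 234, 317 and 234 bp downstream of the Rpl10a start and was 1212, 1144 and 1025 bp wide. Rpl10a thus had H3K4me3 in every library, beside and not on the annotated start. Rpl6 was covered in replicate 2 only, with a peak of 1639 bp, and the nearest peaks were 49 and 28 bp away in replicates 1 and 3. Rpl8, whose product lies at the heart of the large subunit, was covered in replicate 1 (2069 bp), and the peaks of the other libraries began 5 bp away. For Rpl6 and Rpl8 a small shift in a peak's edge decided whether the start counted as covered. The copy Rps27rt differed, with its nearest peak 3226, 3043 and 3078 bp downstream and 399, 276 and 267 bp wide. Rpl3l, the striated muscle copy of Rpl3, had its nearest peak on the upstream side, at −3295, −129 and −2402 bp from the start.

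Where the start was covered, the H3K4me3 peak was somewhat wider than at coding genes at large. The median width over members was 2344 bp in replicate 1, 2121 bp in replicate 2 and 2115 bp in replicate 3 (2193 ± 131 bp, SD, n = 3 libraries). All coding genes with a covered start had medians of 2110, 1917 and 1912 bp (1980 ± 113 bp). The member median was higher in each library, by 234, 204 and 202 bp (214 ± 17.8 bp), a log2 ratio of 0.148 ± 0.004. The sign held in 3 of 3 libraries, but its size depended on peak choice: the log2 ratio came to 0.045 for the 10000 strongest peaks in a library, 0.074 with a −log10 q of at least 5, 0.083 after merging neighbouring peaks and 0.275 with the widest peak near each gene. No test was run on these medians, since the members were chosen with earlier results of the same data known, and the SDs describe the spread between libraries alone.

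The members were also more alike in width than coding genes at large. Their interquartile range was 727, 614 and 710 bp in replicates 1 to 3, against 1292, 1153 and 1152 bp. A narrow spread was not particular to members. The range was 486, 298 and 621 bp for the 16 genes of elongation factors and other TOP mRNAs. It was 795, 806 and 818 bp for complex I genes and 998, 884 and 798 bp for mitochondrial ribosomal protein genes. In the 3 libraries 52 of 78, 51 of 71 and 48 of 75 members lay above the coding median. The tails were thin, with 6, 3 and 3 members above the 90th percentile of coding genes and 1, 0 and 0 below the 10th. Of the 69 members covered in every library, 59 had a mean width of 1.5 to 3 kb, 8 exceeded 3 kb and 2 were below 1.5 kb. The order among members was only moderately repeatable: Spearman's rho of width between pairs of libraries was 0.456 to 0.536 over the members and 0.731 to 0.748 over all coding genes. These correlations are across genes, which are not independent replicates. In 23 of the 69 members the widest library exceeded the narrowest by more than 1.5 times. For coding genes at large, neither this count nor the counts by mean width were computed, so they describe the members alone.

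**Figure D1:**
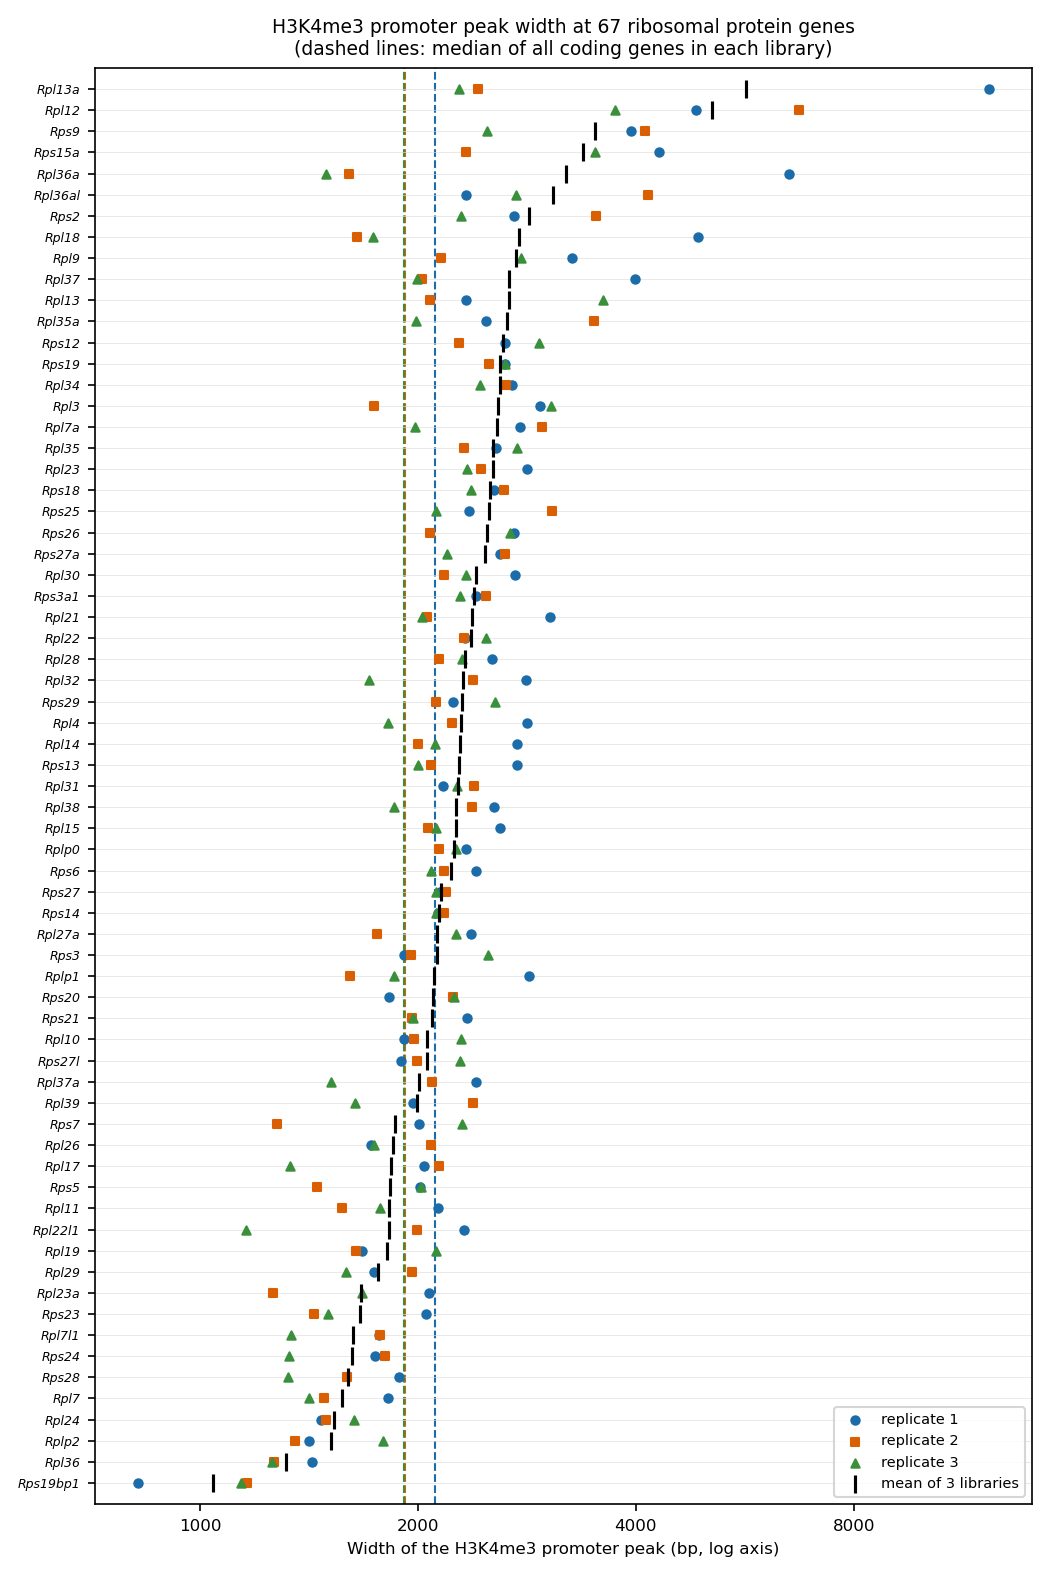
Width of the H3K4me3 peak over the principal TSS (bp, log axis) for 67 of the 69 members covered in all 3 libraries, with 1 symbol per library, a bar for the mean and dashed lines for the median of all coding genes in each library. Most members sit close together near the dashed lines, and Rpl13a stands out through replicate 1 with 12314 bp.

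The extra width lay downstream of the start. The median peak extended 1502, 1346 and 1322 bp into the gene for members, against 1186, 1087 and 1091 bp for all coding genes. The member median was longer in each library, by 316, 259 and 231 bp (269 ± 43.3 bp, n = 3). Upstream, members had medians of 738, 668 and 668 bp and coding genes 804, 729 and 731 bp, a difference of −63.5 ± 2.78 bp. Downstream reach was above the coding median in 62 of 78, 49 of 71 and 58 of 75 members. Within a peak, the downstream side was the longer one in 66, 60 and 64 members (84.6%, 84.5% and 85.3%), against 69.2%, 69.1% and 69.0% of coding genes. Proteasome genes leaned nearly as often, at 77.8%, 82.2% and 86.4%, which is above the members in replicate 3. The lean was thus not particular to members. Complex I genes had 68.9%, 79.1% and 59.5%, and they and mitochondrial ribosomal protein genes were below the members in each library. Among the 69 members covered throughout, 49 had the longer side downstream in all 3 libraries, where 53.4% of 7765 coding genes did, and 4 members, among them Rpl36al, Rps21 and Rps27a, had it upstream in all 3. The share of coding genes with the longer side upstream in all 3 was not computed. The median fold enrichment of the peaks did not separate the groups, with differences, members minus all coding genes, of 0.244, −0.0721 and 0.393 in replicates 1 to 3.

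**Figure D2:**
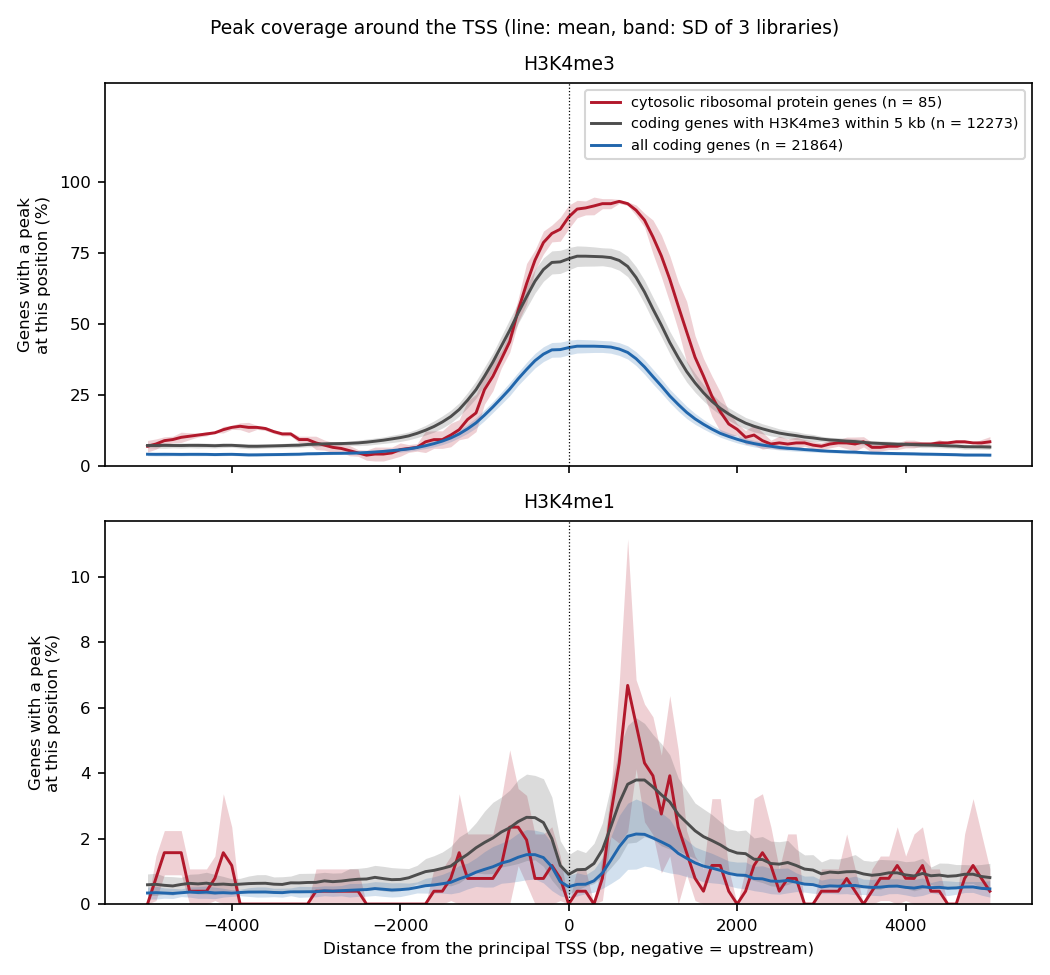
Percentage of genes with a peak at each distance from the principal TSS (bp, negative is upstream, 100 bp steps), as the mean (line) and SD (band) of 3 libraries, for H3K4me3 (top) and H3K4me1 (bottom). H3K4me3 at the members peaked at 93.3% 600 bp downstream and fell off later downstream than upstream, and H3K4me1 was absent at the principal TSS and highest 700 bp downstream.

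The position profile showed the same asymmetry. H3K4me3 covered the start itself in 87.8 ± 4.16% of the members, the position 500 bp downstream in 92.5 ± 1.78% and that 1000 bp downstream in 80.8 ± 5.94%. It still covered 38.4 ± 7.60% at 1500 bp and only 13.0 ± 2.02% at 2000 bp. The fall was thus concentrated between 1 and 2 kb, and 57 of the 69 members had a mean downstream reach in that range, a count not computed for coding genes. Upstream the coverage was 64.3 ± 7.13% at 500 bp and 27.0 ± 5.12% at 1000 bp. The 12273 coding genes with H3K4me3 within 5 kb in every library were covered at 55.4% 1000 bp downstream and at 31.7% 1000 bp upstream, the latter above the members' value.

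Ribosomal protein genes are short, so the same peak took up much of the gene. The median length of the principal transcript on the genome was 3204 bp (374 to 11817 bp), against 15750 bp for all coding genes. H3K4me3 covered a median of 48.1%, 40.6% and 40.1% of the transcript at members with a covered start, against 6.08%, 5.65% and 5.59% of all coding genes and 22.8%, 20.7% and 21.2% of those of at most 10 kb. The whole transcript lay under the peak in 9, 5 and 7 members (11.5%, 7.04% and 9.33%), beside 7.73%, 6.20% and 5.91% of coding genes of at most 10 kb. In all 3 libraries this held for Rpl36, Rps27 and Rpl12. Width itself did not follow length among members, with rho of −0.0751, −0.0387 and 0.0878. Against coding genes of at most 10 kb the members' downstream reach was longer by 336 bp on average.

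By role, large and small subunit genes were close. Large subunit genes had a median width of 2244 ± 250 bp and reached 1411 ± 139 bp downstream, and small subunit genes 2200 ± 54.1 bp and 1419 ± 64.4 bp (n = 3 libraries). The 3 stalk genes had 1931 ± 367 bp and 1378 ± 294 bp. The 4 copies with a covered start, Rpl22l1, Rpl36al, Rpl7l1 and Rps27l, had a width of 1969 ± 149 bp and a downstream reach of 924 ± 121 bp. The copies therefore differed from the subunit genes mainly on the downstream side, over only 4 genes.

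The stalk proteins recruit the factors that drive elongation. Rplp0, the base of the stalk, had widths of 2330, 2136 and 2255 bp in replicates 1 to 3. Rplp1 had 2846, 1609 and 1854 bp, and Rplp2 1413, 1352 and 1791 bp. Rplp2 was below Rplp0 in every library, whereas Rplp1 overlapped both.

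Rpl5 and Rpl11 encode the proteins that carry the smallest ribosomal RNA of the large subunit and bind MDM2, the ubiquitin ligase of p53, when ribosome assembly fails. Rpl11 had peaks of 2129, 1571 and 1774 bp. Rpl5 had 2047 bp in replicate 1 and 2543 bp in replicate 3, and in replicate 2 the nearest peak was 380 bp from its start. Rpl4, Rpl22 and Rpl39 encode proteins at or near the exit tunnel. Rpl4 ranged from 1821 to 2831 bp, Rpl22 from 2312 to 2480 bp and Rpl39 from 1639 to 2379 bp. These ranges overlap, with Rpl22 the steadiest across libraries. Rpl3, which helps shape the peptidyl transferase center, was uneven, with 2949, 1738 and 3052 bp.

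Among the small subunit genes, Rps6, the classic substrate of the S6 kinases, had 2408, 2174 and 2087 bp. Rps19, the gene most often mutated in Diamond-Blackfan anemia, had 2640, 2504 and 2637 bp and was above the coding median in every library. Rps2 and Rps3, at the entry of the messenger RNA channel, had 2713, 3529 and 2290 bp and 1914, 1956 and 2496 bp. Rps2 was wider than Rps3 in replicates 1 and 2 and narrower in replicate 3. Rps27a, which encodes ubiquitin fused to a ribosomal protein, had 2599, 2639 and 2193 bp, of which 892, 1162 and 885 bp were downstream.

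Of the 4 X-linked members, Rpl10, which shapes the catalytic part of the large subunit late in assembly, had 1915, 1973 and 2292 bp. Rps4x had 2174 bp in replicate 1 and 1389 bp in replicate 3, with the nearest peak 99 bp away in replicate 2. Rpl36a had 6504, 1608 and 1494 bp. Its replicate 1 peak stood apart and ran 5347 bp upstream, over the start of Btk, the kinase of B cell receptor signalling, against 573 and 546 bp upstream in the other libraries.

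Among the widest peaks, that of the large subunit gene Rpl13a (chr7:45125558-45128761, minus strand) was 12314, 2424 and 2279 bp wide. In replicate 1 it also covered the start of another coding gene. Without replicate 1 neither the width nor the reach of Rpl13a stood out, since it extended 11233 bp downstream in replicate 1 and 1268 and 1277 bp in the others. Rpl12 (chr2:32961559-32965345, plus strand), whose product lies at the stalk base, had 4841, 6720 and 3745 bp and extended 3566, 6246 and 3273 bp downstream. Its long side thus ran past the end of the 2938 bp principal transcript in every library, although Lrsam1 starts 304 bp away in the opposite direction. Rps9 (chr7:3703993-3706897, plus strand), a small subunit gene with no other coding start in its peak, had 3934, 4112 and 2490 bp. Rps15a, another small subunit gene, had 4306, 2333 and 3516 bp. Rps9 and Rps15a were above the coding median in all 3 libraries.

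The narrowest peak belonged to Rps19bp1, the member that is no ribosomal protein, with 820, 1162 and 1140 bp. Among ribosomal proteins it was Rpl36 (chr17:56613416-56614243, plus strand), with 1426, 1264 and 1257 bp. That peak still reached 1288, 1237 and 1116 bp downstream, past the end of the 828 bp gene, and began only 137, 26 and 140 bp upstream. Rplp2, Rpl24 and Rpl7 followed, with Rpl24 at 1468, 1492 and 1630 bp and Rpl7 at 1820, 1483 and 1413 bp. All 5 were below the coding median in every library. The shortest downstream reaches were those of Rps19bp1 (644, 656 and 1010 bp), Rpl36al (569, 883 and 986 bp), Rpl7l1 (651, 1105 and 783 bp), Rps21 (870, 870 and 944 bp) and Rps28 (904, 976 and 842 bp). Of these 5, only Rps21 and Rps28 are core genes. Rps27, the parent of Rps27rt, was steady at 2144, 2185 and 2117 bp, of which 1440, 1458 and 1508 bp lay downstream, beyond its 981 bp transcript.

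Gene neighbourhood went with the upstream side. The 11 members with a divergent coding start within 1 kb had a median upstream reach of 1068 ± 199 bp, against 661 ± 18.8 bp for the others (n = 3 libraries). In 18 members the peak covered the start of another coding gene in at least 1 library, and their median width was 2408 ± 283 bp against 2155 ± 116 bp. This split was drawn from the peaks themselves, and a wider peak is more likely to reach another start. The width difference therefore shows nothing about neighbouring genes. The 29 members whose introns hold small nucleolar RNAs, which guide ribosomal RNA modification, had a median width of 2397 ± 276 bp against 2169 ± 131 bp. For coding genes at large the matching counts of these 3 kinds were not computed, so the 11, 18 and 29 describe the members alone. Over members with no other coding start in the peak, a split drawn from the peaks and added after the data were seen, the log2 width ratio to all coding genes was 0.122. Whether reads from the 283 annotated pseudogenes named after 59 of the members add to or take from these peaks was not tested, and how reads with several genomic matches were treated is not given in the sources used here.

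Other housekeeping complexes gave a nearer comparison than all coding genes. Ribosomal protein genes reached further downstream than the 78 mitochondrial ribosomal protein genes in each library, by 478, 374 and 320 bp (391 ± 80.3 bp). They also exceeded the 46 genes of respiratory complex I, by 402, 271 and 334 bp (336 ± 65.5 bp), and the 50 proteasome genes, by 124, 154 and 80.5 bp (120 ± 37.0 bp). Their upstream reach differed from that of mitochondrial ribosomal protein genes by 6.67 ± 17.9 bp, less than the spread between libraries. The signs downstream were the same in 3 of 3 libraries for all 3 complexes, and the differences were not tested. In width the members were not above every set, since they were narrower in each library than 16 genes of elongation factors and other TOP mRNAs (−360 ± 180 bp) and than 20 ribosome assembly genes (−100 ± 77.5 bp).

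**Figure D3:**
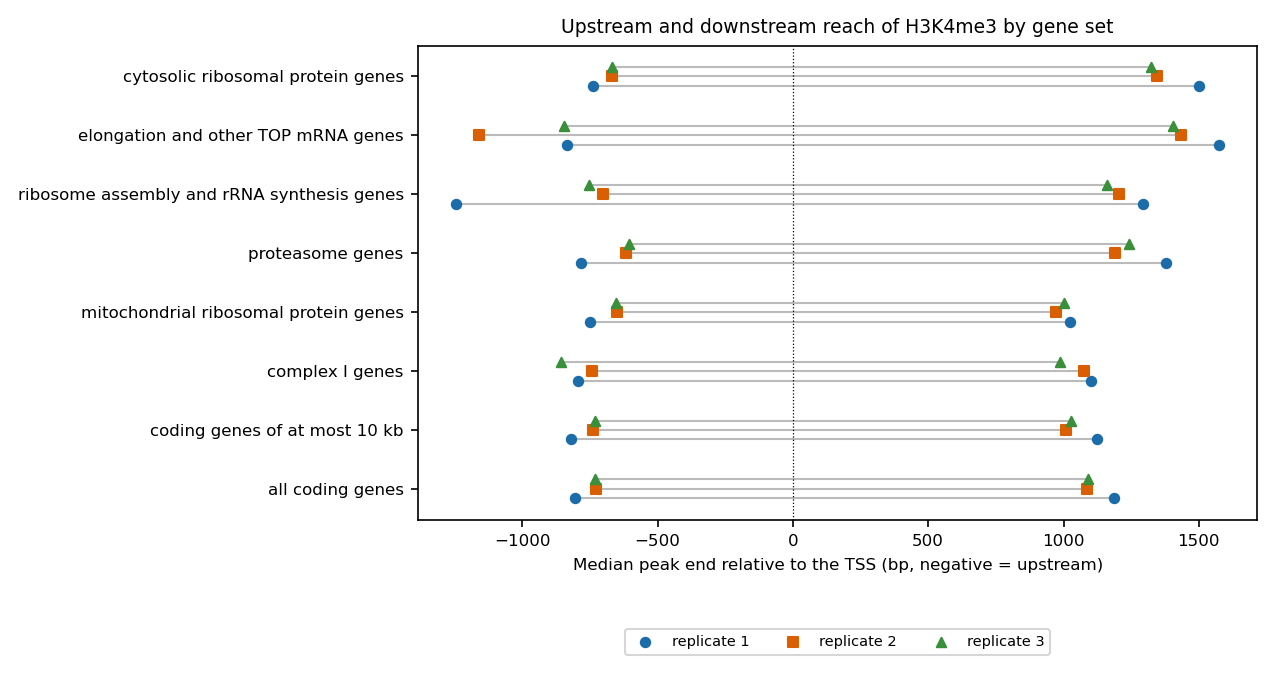
Median ends of the H3K4me3 peak relative to the principal TSS (bp, negative is upstream) for 8 gene sets, with 1 symbol per library joined across the TSS. The downstream ends of the cytosolic ribosomal protein genes lie at 1322 to 1502 bp, beyond those of mitochondrial ribosomal protein, complex I and all coding genes in each library.

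H3K4me1 was patchy. A peak lay within 5 kb of a TSS of 36, 15 and 19 of the 85 members in replicates 1, 2 and 3 (42.4%, 17.6% and 22.4%, Wilson intervals 32.4 to 53.0%, 11.0 to 27.1% and 14.8 to 32.3%). All coding genes had 26.7%, 16.8% and 15.6%. The members' share was higher by 15.7, 0.834 and 6.77 percentage points (7.76 ± 7.47, n = 3), an excess carried mainly by replicate 1, the library with the most peaks, and 3.80 points without it. The difference turned negative against coding genes that also carry H3K4me3 in all 3 libraries, by −3.73, −11.6 and −4.84 points (−6.74 ± 4.28). With a −log10 q of at least 5 the members' mean share fell from 27.5% to 5.10% and the difference to 0.151 points, and the difference was negative in replicates 1 and 3. The 10000 best peaks gave a share of 16.1% and a difference of 2.69 points, and genes of at most 10 kb gave a difference of 13.9 points. Both the size and the sign of the difference thus followed the choice of peaks and comparison genes.

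Few members had the mark repeatedly, and the same held for coding genes at large. A peak was present in all 3 libraries at 4 members (4.71%), beside 6.17% of all coding genes, and in at least 1 library at 47 (55.3%), beside 35.7%. Coding genes with H3K4me3 in all 3 libraries had 11.0% and 61.1%, both above the members. Among members, a peak was missing or confined to 1 library at many. A peak was found in no library at 38 members and in replicate 1 alone at 19. The number shared by pairs of libraries was 8 for replicates 1 and 2, 13 for 1 and 3 and 6 for 2 and 3. H3K4me1 peaks were shallow in these libraries: the fragment count at the summit, recovered from the deposited fold enrichment and p-value, had a median of 6 in each, both over all peaks and over those near members. The highest summit near a member held 11, 14 and 8 fragments, so that a missing peak means not detectable at this depth.

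H3K4me1 peaks covered the principal TSS of 0 of 85 members in each library, which allows a share of up to 3.53%, and of 203, 76 and 69 coding genes (0.928%, 0.348% and 0.316%). Those shares are within the limit that 0 of 85 allows, so no difference from coding genes was detectable. The peaks sat mostly downstream, 29 of 48, 11 of 16 and 18 of 21, and the closest summits were 154, 187 and 206 bp from the principal TSS. At Rpl19, a large subunit gene, a replicate 1 summit lay 13 bp from another annotated start. Coverage was highest 700 bp downstream, at 6.68 ± 4.47% of members, against 2.35 ± 2.36% at 700 bp upstream. For all coding genes the maximum was 2.14 ± 1.07%, at 800 bp downstream, against 1.51 ± 0.766% at 500 bp upstream. H3K4me3-marked genes had 3.79 ± 1.90% and 2.65 ± 1.32% at these positions, so a downstream lean was not particular to members. The members' downstream maximum exceeded that of H3K4me3-marked genes by less than its own SD between libraries. Of the peaks near members, 41 of 48, 14 of 16 and 19 of 21 had their summit inside an H3K4me3 peak of at least 1 library. The matching shares over H3K4me1 peaks near all coding genes were not computed.

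**Figure D4:**
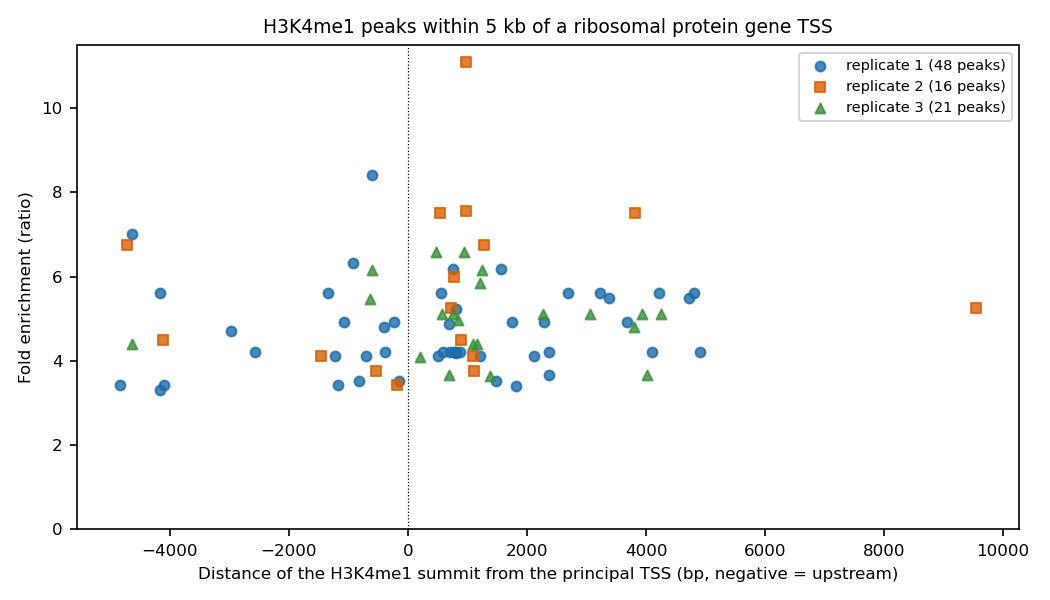
Fold enrichment (ratio) of each H3K4me1 peak near a member against the distance of its summit from the principal TSS (bp, negative is upstream), by library. Most summits lie on the downstream side, no summit is closer than 154 bp to the principal TSS, and the highest point is the replicate 2 peak at Rpl22 with 11.1; the point at 9549 bp is within 5 kb of another start of its gene.

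Rps14, Rpl34 and Rpl21 were among the 4 members with H3K4me1 in all 3 libraries. Rps14, the small subunit gene whose loss underlies the anemia of the 5q deletion syndrome, had summits 693, 716 and 942 bp downstream with a fold enrichment of 4.87, 5.25 and 6.58. Its H3K4me3 peak was 2133, 2171 and 2116 bp wide and extended 1617, 1688 and 1208 bp downstream, so the H3K4me1 summits fell within it. Rpl34, a large subunit gene, had summits 2112, 968 and 849 bp downstream with 4.12, 7.55 and 4.96. Rpl21 had 2 peaks in replicate 1, at 2971 bp upstream and 2692 bp downstream, and summits 1271 and 1157 bp downstream in the others. Rps14 and Rpl34 thus had the mark on the downstream flank in every library, and Rpl21 at changing positions. The strongest single peak was at Rpl22 in replicate 2, 969 bp downstream, with a fold of 11.1 and 14 fragments.

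Shares of H3K4me1 within 5 kb were close to those of the other complexes. Members differed from mitochondrial ribosomal protein genes by −2.89 ± 3.68 percentage points, from proteasome genes by −5.22 ± 5.37 and from complex I genes by −5.88 ± 5.39. Each of these mean differences was about as large as the spread between libraries or smaller than it. Against the ribosome assembly genes the difference was −15.9 ± 10.2 points and negative in all 3 libraries. Against the genes of elongation factors and other TOP mRNAs it was −14.2 ± 18.9 points, and positive in replicate 2. Of the 10 germinal center B cell markers, 7 had H3K4me1 in all 3 libraries, and their H3K4me3 peaks had a median width of 7505 ± 654 bp.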

How the data were processed

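Mint-ChIP peak lists of 6 libraries were used as the authors deposited them. The submitters' processing notes name BWA, Picard, HOMER and Genrich with no role, and the build mm10, another name for GRCm38; no peak passed a chromosome end. Peak caller settings and control libraries are not given in the sources used here. The deposited files give fold enrichment (a ratio), −log10 p-values, −log10 q-values and a score, which was not used, and, for H3K4me1, a summit offset. No read totals were used, so depth is known only through the peaks.

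The principal TSS per gene was chosen by APPRIS rank, CAGE support, transcript support level and length. Peaks within 5 kb of any coding TSS, the peak over the principal TSS and its reach to either side were computed in each library and summarised as mean ± SD. Members, lists and comparisons were chosen with earlier results of these data known, so no test was run. Named members were the 5 extremes of width and of downstream reach, those lacking H3K4me3, those with H3K4me1 in all 3 libraries and a list by role. Rpl6, Rpl8, Rpl10a, Rps27 and its copy, and Rpl3l were added after their values were seen. Some genes that these rules name are not reported here. Alternatives covered peak strength, distance, merging, TSS choice, members, comparison genes and leaving out each library. Measures were tested on simulated data. Summit fragment counts solve the Poisson p-value to within 0.005. Python 3.11.15, pandas 2.3.3, NumPy 2.4.6, SciPy 1.17.1 and matplotlib 3.10.9 were used.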

Additional observations from a re-analysis of the deposited data

How the results depend on the processing

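The 7 results were recomputed under 73 alternatives, 21 of which left out a library; 53 values moved by less than 1 SD between libraries, 19 moved by more and 1 reversed. The log2 width ratio (0.148) was 0.074 with a −log10 q of at least 5, 0.045 with the best 10000 peaks, 0.143 with the most upstream TSS, 0.083 after merging peaks, 0.275 with the widest peak, 0.163 for core genes, 0.134 against H3K4me3-marked genes, 0.184 against genes of at most 10 kb and 0.122 for members with no other coding start in the peak, an alternative chosen after seeing the data. The downstream difference (269 bp) was 204 bp, 198 bp and 336 bp with the q threshold, the best 10000 peaks and genes of at most 10 kb. The H3K4me3 share (97.6%) was 83.1% and 66.3% under the first 2 of these, 95.7% within 1 kb, 100% for core genes and 97.0% for members with no other coding start. With the q threshold the H3K4me1 share (27.5%) was 5.10% and its difference (7.76 points) 0.151. The share was 16.1% with the best 10000 peaks and 16.9% within 1 kb, and the difference was 2.69 points with the best 10000 peaks and 13.9 points against genes of at most 10 kb. The difference reversed to −6.74 points against H3K4me3-marked genes. The cause of these shifts was not tested. Leaving out each library gave a width of 2118 to 2232 bp, a log2 ratio of 0.146 to 0.149, a downstream reach of 1334 to 1424 bp with a difference of 245 to 288 bp, an H3K4me3 share of 97.6%, an H3K4me1 share of 20 to 32.4% and a difference of 3.80 to 11.2 points, the lowest without replicate 1. No paired analysis was possible because the results come from no test; each difference was taken within a library. Peak lists without read totals limit what a missing H3K4me1 peak can show.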

Other observations

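Other translation genes lay on either side of the ribosomal protein genes in downstream reach. The 16 genes of elongation factors and other TOP mRNAs had a median downstream reach of 1471 ± 90.7 bp (n = 3 libraries), and ribosomal protein genes differed from them by −80.8 ± 8.52 bp. The 20 genes of ribosome assembly and ribosomal RNA synthesis had 1220 ± 66.8 bp, and ribosomal protein genes were longer by 170 ± 35.9 bp. Fau, which encodes a ubiquitin-like protein fused to a ribosomal protein, had peaks of 2604, 2370 and 2038 bp. The principal start of Rpsa, a small subunit gene also known as the laminin receptor, was covered in no library, and another of its starts was covered in 1.

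A small shoulder of H3K4me3 lay 4000 bp upstream of member starts, at 13.7 ± 0.693% of members, against 4.22 ± 0.397% of all coding genes and 7.40 ± 0.664% of H3K4me3-marked genes. Of 13 members covered there in at least 1 library, 10 were covered in 3 of 3. In 9 of these 10 the peak also held the start of another coding gene, such as Tmem238 at Rpl28, Arpc5l at Rpl35 and Polr3a at Rps24. The exception among the 10 was Rps15a. The matching counts for all coding genes and for H3K4me3-marked genes were not computed, so 9 of 10 describes the members alone.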
